A study of Mus musculus with 12 samples.

Results

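J774A.1 macrophage-like mouse cells given 100 µM hypochlorous acid (HOCl) were compared with untreated cells kept in cell media, across all genes that reached 1 FPKM (fragments scaled to exon length and library size) in at least 3 of the 6 libraries. That rule kept 11398 of the 28977 gene IDs measured, and 6 of the 12 libraries of the study. Of the genes kept, 10333 reached 1 FPKM in all 6 libraries and 331 in exactly 3. Those 331 had a median mean level of 1.03 FPKM, beside 0.856 FPKM for the 418 genes that reached it in exactly 2 libraries. Among the 331, 37 were kept through the HOCl libraries alone and 28 through the cell media libraries alone.

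The HOCl group (n = 3) received 100 µM HOCl in HBSS, a buffered salt solution, for 1 h and then full medium for 24 h before collection. The cell media group (n = 3) was kept in medium and never saw HBSS. HBSS alone (0 µM HOCl, n = 3) and HOCl at 20 µM (n = 3) were the other groups. The effects of HBSS and of HOCl therefore cannot be told apart in the difference between 100 µM and cell media. HBSS values are given beside most of the gene groups with the largest shares of calls, and beside some single genes. The labels do not state whether replicates came from separate cultures, and the p-values cover the spread between libraries, which may be technical. The study used lethal as well as sublethal concentrations without saying in the labels which was which, and the survival of the 100 µM cells is not given. J774A.1 is a single established line, grown here in DMEM with fetal bovine serum.

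HOCl is the chlorinating oxidant that myeloperoxidase of neutrophils makes from hydrogen peroxide and chloride, and it reacts with thiols, methionine and amines of proteins. Cells meet damaged or scarce proteins with the integrated stress response, in which the factor ATF4 drives genes of amino acid supply and the factor CHOP (gene Ddit3), and with the unfolded protein response, in which IRE1, ATF6 and PERK of the endoplasmic reticulum raise its chaperones. Macrophages answer interferon with a set of antiviral genes, and dispose of damaged mitochondria by mitophagy, the process named in the title of the series.

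The 20 macrophage identity genes in the table all reached 1 FPKM, with summed levels of 5334 to 6022 FPKM in HOCl libraries and 5071 to 6087 FPKM in cell media libraries. Of 37 markers of 6 other cell types, 3 (Lck, Blnk and S100a8) reached 1 FPKM and 3 were at 0 in all 6 libraries. Values rested on 17736499 to 18811910 reads in HOCl libraries and 17683937 to 20328641 reads in cell media libraries. The cell media group was not uniform. Its replicates 1 and 2 correlated at 0.988 with each other across genes and at 0.946 to 0.950 with replicate 3. The HOCl libraries correlated at 0.974 to 0.988 with cell media replicate 3 and at 0.954 to 0.970 with replicates 1 and 2. FPKM values summed to 318364, 331378 and 336382 in HOCl libraries, against 389124, 387481 and 309647 in cell media replicates 1, 2 and 3. Cytosolic ribosomal protein genes took 7.68%, 8.24% and 7.97% of that sum in HOCl libraries, against 12.7%, 12.5% and 7.86% in cell media replicates 1, 2 and 3. The counts over all genes are therefore given against all 3 cell media libraries, against replicates 1 and 2, and against replicate 3 alone, and for most genes described with a call it is said whether the call held against replicate 3 alone, whose spread is assumed to be that of the other groups.

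Differences are HOCl minus cell media on the log2(FPKM + 1) scale, which understates those of low genes. A gene was called where limma's two-sided test, with Benjamini-Hochberg adjustment over all genes kept, gave an adjusted p under 0.05, and only called genes are said to rise or fall. Against all 3 cell media libraries, 1165 of 11398 genes (10.2%) were called, of which 795 (6.97%) rose and 370 (3.25%) fell. The median log2 difference of all genes kept was 0.07. With median-of-ratios scaling the split was 585 higher against 582 lower, and scaling to equal FPKM sums moved the median of all genes to 0.17. In 2810 genes (24.7%) the groups did not overlap, 1854 (16.3%) with all HOCl libraries above and 956 (8.39%) with all of them below. Among these were 792 of the 795 genes that rose and 368 of the 370 that fell. A lack of overlap therefore adds little to a call. The counts were very different against single kinds of control. Against replicates 1 and 2, 6746 genes (59.2%) were called, 4389 (38.5%) higher and 2357 (20.7%) lower after HOCl. Of these, 2360 of the higher genes (53.8%) and 1366 of the lower (58.0%) lay in the opposite direction against replicate 3. Against replicate 3 alone, 427 genes (3.75%) were called, 182 (1.60%) higher and 245 (2.15%) lower. The calls were opposite between the controls for 65 genes that were higher than replicates 1 and 2 and lower than replicate 3, and for 29 that were lower than replicates 1 and 2 and higher than replicate 3.

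**Figure D1:**
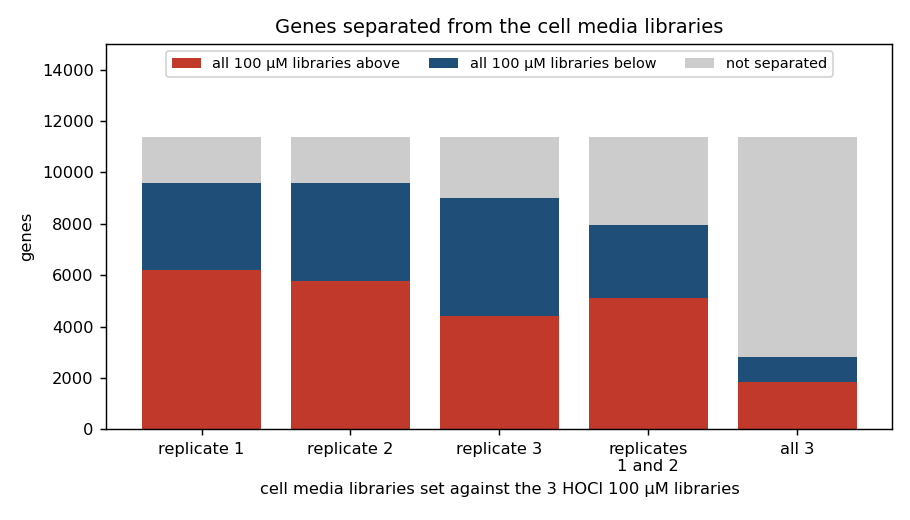
Number of genes (y axis) for which all 3 HOCl 100 µM libraries lay above (red), all lay below (blue) or did not separate from (grey) the cell media libraries named on the x axis, of 11398 genes. The HOCl libraries lay above replicates 1, 2 and 3 in 6184, 5772 and 4409 genes and below them in 3414, 3818 and 4611, while 8588 genes were not separated from all 3.

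All 795 genes that rose and all 370 that fell in the main comparison had the same direction against cell media replicate 3. Replicate 3 is itself among the controls of that comparison, and a gene lying the other way against it was unlikely to be called. The shared direction therefore adds little to a call. Of the genes that rose and fell, 78 and 62 were also called against replicate 3 alone, 140 in all. Of all genes, 7 were called with each of the 6 libraries left out in turn. These were Ddit3, Bbc3, Cxcr4, B4galt3 and Tob2, which fell, and Mmp10 and Gadd45g, which rose. Cxcr4, B4galt3, Tob2 and Mmp10 are named because their calls were seen to hold in this way.

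Genes of the integrated stress response were lower after 100 µM HOCl than in cell media. Of 28 kept ATF4 and CHOP targets, 18 fell and 0 rose (64.3% called, beside 10.2% of all genes). Of the 28, 23 lay below all cell media libraries, beside 8.39% of all genes. The median log2 difference was -0.58. The median was -0.63 against replicates 1 and 2 and -0.57 against replicate 3. Against replicate 3, 27 of 28 were lower, beside 5807 of all 11398 genes. The HBSS minus cell media median was -0.42 and the HOCl minus HBSS median -0.20. The HOCl minus cell media median ranged from -0.69 to -0.45 over the 3 other scalings of the libraries. Ddit3, which encodes CHOP, had the smallest adjusted p of all genes. It stood at 16.1, 14.2 and 15.7 FPKM in HOCl libraries, against 55.7, 47.3 and 49.0 FPKM in cell media libraries. The cell media libraries were close to each other and far above every HOCl library. The log2 difference was -1.66 (SE 0.11, adjusted p = 0.000195), and it was -1.62 against replicate 3 alone (adjusted p = 0.0121). In the HBSS libraries Ddit3 stood at 26.5, 24.0 and 22.6 FPKM, between the HOCl and the cell media libraries.

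Atf4 itself, the factor at the head of the response, stood at 213, 192 and 223 FPKM in HOCl libraries, against 323, 356 and 277 FPKM in cell media libraries. The groups did not overlap and the log2 difference was -0.60 (SE 0.12, adjusted p = 0.0234). Trib3, a pseudokinase that binds ATF4 and AKT, stood at 74.1, 52.9 and 63.7 FPKM after HOCl, against 175, 153 and 119 FPKM in cell media (log2 difference -1.21, adjusted p = 0.0163). Chac1, which degrades glutathione, stood at 8.57, 7.03 and 9.22 FPKM after HOCl, against 20.4, 26.7 and 16.0 FPKM in cell media (-1.23, adjusted p = 0.0163). Every HOCl library was below the lowest cell media library for both genes. Nupr1, a small stress-induced chromatin protein, stood at 9.81, 8.79 and 11 FPKM after HOCl, against 28.3, 22.7 and 19.0 FPKM in cell media (-1.15, adjusted p = 0.00723). Gdf15, a secreted stress hormone, stood at 4.16, 3.29 and 4.52 FPKM after HOCl, against 10.1, 10.5 and 8.05 FPKM in cell media (-1.08, adjusted p = 0.00723). Nupr1 and Gdf15 also fell against replicate 3 alone, by 0.88 and 0.87 on the log2 scale (adjusted p = 0.0442 and 0.0459). Atf4, Trib3 and Chac1, at -0.41, -0.90 and -0.88 against replicate 3 alone, were not called there (adjusted p = 0.0647, 0.0563 and 0.0521). Trib3, Atf4 and the members in the next paragraph other than Atf3 are given after their values were seen.

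Ddit4, an inhibitor of the growth kinase mTORC1, stood at 13.5, 10.9 and 11.9 FPKM after HOCl, against 34.2, 37.2 and 20.1 FPKM in cell media (log2 difference -1.22, adjusted p = 0.0164). Its cell media replicate 3 lay nearest to the HOCl libraries but above all of them. Enzymes of amino acid and one-carbon supply fell by less: Asns, which makes asparagine, by 0.51, Pycr1 of proline synthesis by 0.81, Cth of cysteine synthesis by 0.87, and the mitochondrial folate enzymes Shmt2 and Mthfd2 by 0.56 and 0.33 on the log2 scale. Atf3, a repressor that ATF4 induces, fell by 0.46 (107 ± 5.49 FPKM after HOCl and 148 ± 17.3 FPKM in cell media, SD, n = 3 each, adjusted p = 0.0312). The amino acid transporters of the list did not all follow. Slc7a11, which imports cystine, stood at 6.40, 5.69 and 5.87 FPKM after HOCl, against 4.05, 4.0 and 8.43 FPKM in cell media. It was above replicates 1 and 2 and below replicate 3, with log2 differences of 0.47 and -0.43 (adjusted p against replicate 3 = 0.0442). Slc38a2, which imports neutral amino acids, had differences of 0.15 against replicates 1 and 2 and -0.57 against replicate 3. Against replicate 3 alone Ddit4 (-0.69, adjusted p = 0.0504), Atf3 (-0.29, adjusted p = 0.102) and the 5 enzymes (adjusted p = 0.07, 0.0515, 0.0723, 0.0679 and 0.0542 in the order given) were not called.

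Promoters of the list hold the composite C/EBP-ATF element, to which ATF4 and CHOP bind with C/EBP partners. The letters TGATGNAA, searched on both strands from 250 bases before to 50 after the start in RefSeq promoters of mouse GRCm38.p6, occurred in 7 of 25 list promoters (28%), beside 2.78% of the 7961 promoters of genes kept and 3.97% of all 32851. The 7 were those of Asns, Atf3, Chac1, Nupr1, Pycr1, Slc7a11 and Trib3. Sequences of 3 of them are shown, 5′ to 3′ on the strand of the gene and with the match in capitals, because these genes fell and carry the element. Trib3 is at chr2:152344011-152344310 on the minus strand, Chac1 at chr2:119350992-119351291 on the plus strand and Nupr1 at chr7:126625421-126625720 on the minus strand.
Trib3: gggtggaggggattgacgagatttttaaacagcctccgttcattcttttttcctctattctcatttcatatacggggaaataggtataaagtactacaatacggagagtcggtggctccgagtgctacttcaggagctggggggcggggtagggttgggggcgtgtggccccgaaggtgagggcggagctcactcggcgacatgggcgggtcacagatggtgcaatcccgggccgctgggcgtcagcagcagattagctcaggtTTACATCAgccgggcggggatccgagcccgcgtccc
Chac1: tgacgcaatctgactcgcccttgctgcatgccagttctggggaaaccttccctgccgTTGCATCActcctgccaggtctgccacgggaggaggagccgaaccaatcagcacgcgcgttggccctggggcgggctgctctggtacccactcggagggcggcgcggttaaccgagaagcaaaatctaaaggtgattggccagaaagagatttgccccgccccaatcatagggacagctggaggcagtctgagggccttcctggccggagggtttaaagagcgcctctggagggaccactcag
Nupr1: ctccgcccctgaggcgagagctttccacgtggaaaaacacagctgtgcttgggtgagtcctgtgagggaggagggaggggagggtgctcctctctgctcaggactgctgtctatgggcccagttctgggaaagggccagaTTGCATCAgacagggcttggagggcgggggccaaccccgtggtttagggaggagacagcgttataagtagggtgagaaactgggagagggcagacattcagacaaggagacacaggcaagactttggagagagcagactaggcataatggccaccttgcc
The Ddit3 window, at chr10:127290543-127290842 on the plus strand, had no match to these letters. Slc7a11 holds the element without a fall in the main comparison. A match is a description of the sequence and no measurement of binding.

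**Figure D2:**
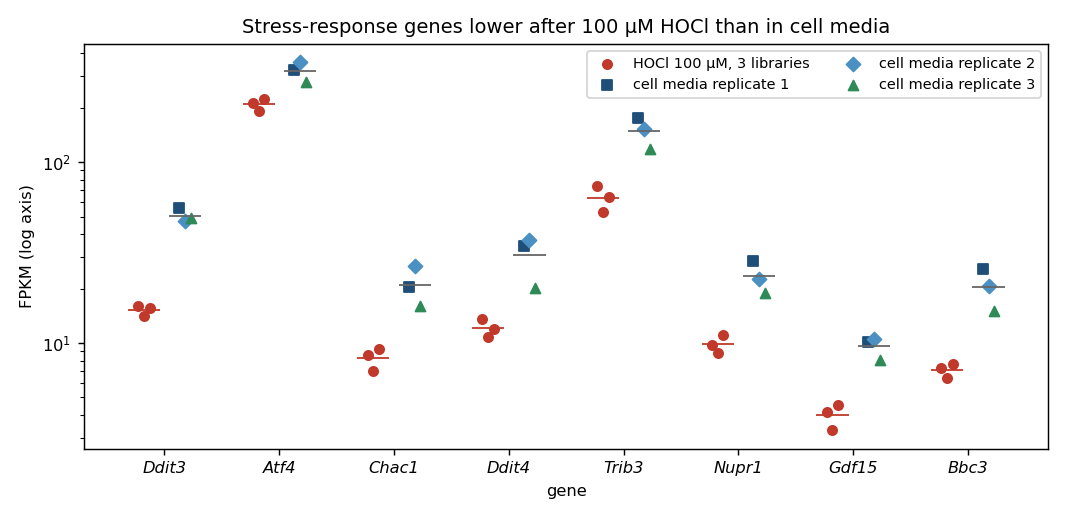
FPKM on a log axis of 8 stress-response genes in the 3 HOCl 100 µM libraries (red circles, left of each gene) and in cell media replicates 1 (square), 2 (diamond) and 3 (triangle), with a line at each group mean. For all 8 genes every HOCl library lies below every cell media library, and replicate 3 is the lowest cell media library for each of them except Ddit3.

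Among genes of growth arrest and death, the p53 and ATF4 effector Bbc3, which encodes the BH3-only killer protein PUMA, fell furthest. It stood at 7.23, 6.37 and 7.64 FPKM in HOCl libraries, against 25.7, 20.6 and 15.1 FPKM in cell media libraries. No library of either group reached into the other group. The log2 difference was -1.38 (SE 0.16, adjusted p = 0.00516) and was -1.0 against replicate 3 alone (adjusted p = 0.024). In HBSS libraries Bbc3 stood at 10.6, 9.64 and 9.82 FPKM, between the HOCl and the cell media libraries. Its differences were -0.94 for HBSS minus cell media and -0.45 for HOCl minus HBSS. Of the 22 p53 targets kept, Bbc3 included, 4 rose and 4 fell (36.4% called, beside 10.2% of all genes). The list medians were 0.09 for HBSS minus cell media and 0.01 for HOCl minus HBSS. Gadd45g, a stress sensor of the GADD45 family, stood at 5.39, 5.38 and 4.41 FPKM after HOCl, against 1.74, 2.02 and 1.89 FPKM in cell media. The log2 difference was 1.07 against replicates 1 and 2, 1.07 against replicate 3 and 1.07 overall (adjusted p = 0.00516). Its paralog Gadd45a, named after its values were seen, fell by 0.98 (40.2 ± 6.08 FPKM after HOCl and 80.4 ± 15.7 FPKM in cell media, SD, n = 3 each). Ccng1, a p53-induced cyclin, rose by 0.78 on the log2 scale (adjusted p = 0.0164). The sestrins, which restrain mTORC1, were split, with Sesn1 higher by 0.43 and Sesn2 lower by 0.31, and Cdkn1a, the p21 cell cycle inhibitor, differed by 0.04 (adjusted p = 0.838). Against replicate 3 alone Gadd45g and Ccng1 were called (adjusted p = 0.0408 and 0.0429), and Gadd45a, Sesn1 and Sesn2 were not (adjusted p = 0.0563, 0.17 and 0.0537).

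Of 31 kept BCL2 family, caspase and lytic death genes, 8 rose and 2 fell (32.3% called, beside 10.2% of all genes). Among the risers were the caspase Casp8, the BH3 protein Bid, the necroptosis kinases Ripk1 and Ripk3 with their effector Mlkl, and the inflammasome sensor Nlrp3. Nlrp3 stood at 16.2, 17.9 and 15.9 FPKM after HOCl, against 7.28, 8.78 and 12.9 FPKM in cell media (log2 difference 0.77, adjusted p = 0.025). Mlkl, which perforates the plasma membrane in necroptosis, stood at 24.3, 25.6 and 26.7 FPKM after HOCl, against 14.9, 14.6 and 20.7 FPKM in cell media (0.60, adjusted p = 0.0251). For both genes replicate 3 was the highest cell media library and the groups did not overlap. Casp8 rose by 0.71 on the log2 scale (adjusted p = 0.0327). The fallers were the killer Bik, by 0.87, and the survival gene Bcl2l1, by 0.36. The list's median of 0.06 changed sign with median-of-ratios scaling, to -0.04. For Nlrp3, Mlkl and Casp8 the differences against replicate 3 alone, 0.35, 0.29 and 0.29, were not called (adjusted p = 0.0563, 0.0662 and 0.145), nor was any other member of the list. For Nlrp3, Mlkl and Casp8 the HBSS minus cell media differences were 0.62, 0.53 and 0.66, beside 0.15, 0.07 and 0.05 for HOCl minus HBSS.

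Chaperones of the endoplasmic reticulum were higher after HOCl, as a group opposite to the ATF4 targets. Of 22 kept members 12 rose and 2 fell (63.6% called, beside 10.2% of all genes). The median log2 difference was 0.48, with 0.55 against replicates 1 and 2 and 0.32 against replicate 3. The median was between 0.37 and 0.61 with the other scalings. Dnajb11, a co-chaperone of BiP, stood at 47.0, 52.7 and 53.3 FPKM in HOCl libraries, against 29.4, 34.4 and 35.3 FPKM in cell media libraries. Its groups did not overlap (log2 difference 0.61, SE 0.10, adjusted p = 0.016), and it was called against replicate 3 alone (0.52, adjusted p = 0.0459). Pdia3 and Pdia4, disulfide isomerases of folding glycoproteins, rose by 0.92 and 0.74 (adjusted p = 0.0167 and 0.0193). Hspa5, which encodes BiP, stood at 253, 297 and 272 FPKM after HOCl, against 105, 134 and 196 FPKM in cell media (0.96, adjusted p = 0.0229). Calr, the calcium-binding lectin calreticulin, stood at 459, 561 and 551 FPKM after HOCl, against 228, 302 and 296 FPKM in cell media (0.93, adjusted p = 0.0193). The HBSS group already lay above cell media for these chaperones, with log2 differences of 0.80 for Hspa5 and 0.62 for Calr, beside 0.16 and 0.31 for HOCl minus HBSS. Over the list the medians were 0.34 for HBSS minus cell media and 0.12 for HOCl minus HBSS. Pdia3, Pdia4, Hspa5 and Calr were not called against replicate 3 alone (0.55, 0.48, 0.48 and 0.82, adjusted p = 0.051, 0.0563, 0.0542 and 0.0532).

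The list's 2 members that fell were Ern1 and Herpud1. Ern1, which encodes the sensor IRE1α, stood at 5.75, 3.71 and 3.68 FPKM after HOCl, against 9.30, 7.08 and 11.3 FPKM in cell media, a log2 difference of -0.93 (adjusted p = 0.0305) and of -1.21 against replicate 3 alone (adjusted p = 0.0488). Herpud1, a degradation component that ATF4 and ATF6 induce, fell by 0.33 (adjusted p against replicate 3 = 0.0678, not called). Xbp1, the factor whose message IRE1 splices, differed by 0.12, and Atf6 by 0.03, and neither was called. Spliced and unspliced Xbp1 are not separated in gene-level values. Hspa5, Calr, Ern1, Herpud1, Xbp1 and Atf6 are given after their values were seen.

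The endoplasmic reticulum stress response element, CCAAT and CCACG with 9 free bases between them, which ATF6 binds with NF-Y, was present on either strand in 8 of 19 chaperone list promoters (42.1%), beside 0.138% of promoters of genes kept and 0.119% of all. Those 8 belonged to Calr, Canx, Creld2, Dnajc3, Hsp90b1, Hspa5, Pdia6 and Syvn1. The first 7 of these genes rose in expression, and Syvn1 differed by -0.06 without a call. The Hspa5 promoter, at chr2:34771840-34772139 on the plus strand, and the Calr promoter, at chr8:84846882-84847181 on the minus strand, are shown because these risers hold it, with the element in capitals (RefSeq, GRCm38.p6).
Hspa5: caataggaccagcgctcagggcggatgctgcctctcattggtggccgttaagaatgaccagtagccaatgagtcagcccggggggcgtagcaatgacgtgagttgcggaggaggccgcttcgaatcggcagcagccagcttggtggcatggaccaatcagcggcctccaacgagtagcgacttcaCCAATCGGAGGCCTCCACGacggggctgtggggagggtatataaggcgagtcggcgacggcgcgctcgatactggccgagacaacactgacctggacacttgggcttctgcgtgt
Calr: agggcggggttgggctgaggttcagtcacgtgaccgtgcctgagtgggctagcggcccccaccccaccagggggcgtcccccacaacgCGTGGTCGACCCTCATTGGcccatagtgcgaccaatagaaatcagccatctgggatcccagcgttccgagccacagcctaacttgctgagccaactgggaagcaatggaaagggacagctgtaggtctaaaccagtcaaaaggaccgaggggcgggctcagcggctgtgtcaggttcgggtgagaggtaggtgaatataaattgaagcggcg

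Chaperones of the cytosol and mitochondria rose in part, 8 of 23 kept with 1 fall (39.1% called, beside 10.2% of all genes). Their median log2 difference was 0.26. Cct3, a subunit of the TRiC ring that folds actin and tubulin, stood at 69.8, 80.7 and 76.5 FPKM after HOCl, against 43.3, 47.7 and 55.9 FPKM in cell media (0.62, adjusted p = 0.0188). Hsph1, a nucleotide exchange factor of HSP70, rose by 0.89 (adjusted p = 0.0203) and Dnaja1, an HSP40, by 0.75 (adjusted p = 0.0271). Hspa8, the constitutive HSP70, stood at 221, 324 and 283 FPKM after HOCl, against 111, 158 and 120 FPKM in cell media. Its log2 difference was 1.04 against replicates 1 and 2 and 1.18 against replicate 3, where it was not called (adjusted p = 0.0543). Hsf1, the factor of the heat shock response, differed by -0.10, and Lonp1, a protease of the mitochondrial matrix, fell by 0.64. Cct3, Hsph1, Dnaja1 and Lonp1 were not called against replicate 3 alone (adjusted p = 0.0555, 0.0674, 0.0596 and 0.0703). Over the list the medians were 0.15 for HBSS minus cell media and 0.11 for HOCl minus HBSS. Hspa8, Hsf1 and Lonp1 are given after their values were seen.

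**Figure D3:**
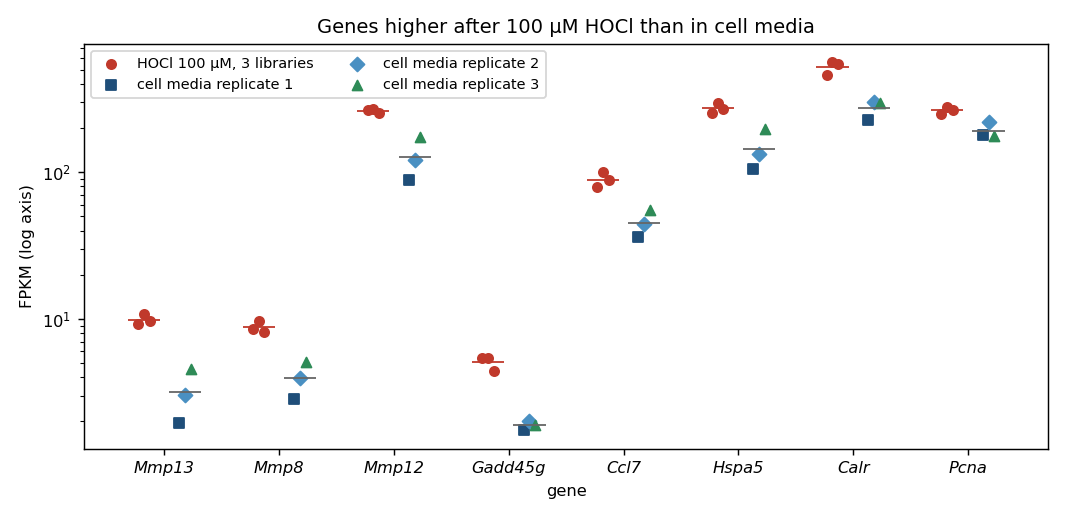
FPKM on a log axis of 8 genes that rose, in the 3 HOCl 100 µM libraries (red circles, left of each gene) and in cell media replicates 1 (square), 2 (diamond) and 3 (triangle), with a line at each group mean. Every HOCl library lies above every cell media library, and replicate 3 is the cell media library nearest to HOCl for the matrix proteases Mmp13, Mmp8 and Mmp12, for Ccl7 and for Hspa5.

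Of the 13 matrix proteases and inhibitors kept, 5 rose and 0 fell (38.5% called, beside 10.2% of all genes). Mmp13, a collagenase, stood at 9.23, 10.7 and 9.74 FPKM in HOCl libraries, against 1.96, 3.05 and 4.55 FPKM in cell media libraries. It was the gene with the widest gap between the groups among those that rose with a mean of at least 5 FPKM (log2 difference 1.43, SE 0.18, adjusted p = 0.00723), and was called against replicate 3 alone (0.97, adjusted p = 0.024). Mmp12, the macrophage elastase, stood at 265, 271 and 255 FPKM after HOCl, against 88.4, 122 and 173 FPKM in cell media (1.09, adjusted p = 0.0164). The neutrophil-type collagenase Mmp8 stood at 8.53, 9.70 and 8.16 FPKM after HOCl, against 2.84, 3.94 and 5.11 FPKM in cell media (1.00, adjusted p = 0.0163). In all 3 genes the cell media replicates were spread widely and replicate 3 was the highest. Mmp10, a stromelysin outside that list, stood at 4.20, 5.44 and 4.43 FPKM after HOCl, against 1.09, 1.61 and 1.94 FPKM in cell media (1.17, adjusted p = 0.00537). Beside Mmp13, Mmp12 and Mmp8 the list's risers were Ctsk and Adam8, while the cystatin inhibitors Cst3 and Cstb differed by -0.32 and -0.37 without a call. In HBSS libraries Mmp13 averaged 7.06 ± 0.335 FPKM and Mmp12 207 ± 5.35 FPKM (SD, n = 3), between the HOCl and the cell media means. Against replicate 3 alone Mmp12, Mmp8, Mmp10 and Ctsk were called (0.61, 0.68, 0.94 and 0.29, adjusted p = 0.0121, 0.0493, 0.0408 and 0.0459), and Adam8 was not (adjusted p = 0.109).

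Ccl7, a monocyte chemoattractant, stood at 79.0, 99.9 and 87.9 FPKM after HOCl, against 36.1, 44.5 and 55.7 FPKM in cell media. The groups did not overlap (log2 difference 0.97, adjusted p = 0.0116), and the call held against replicate 3 alone (0.66, adjusted p = 0.0442). Its neighbours in function Ccl2, Ccl9 and Cxcl10 rose by 0.58, 0.54 and 0.51. Tnip3, an inhibitor of NF-κB signalling, and Il1rn, the antagonist of the interleukin-1 receptor, rose by 0.72 and 0.48 (adjusted p = 0.0151 and 0.0229). The classical inflammatory genes did not follow. Tnf, Nos2, Cxcl2, Ccl3 and Nfkbia had log2 differences of -0.23, -0.54, -0.38, -0.37 and -0.08, and none of these 5 was called. The NF-κB subunit Relb and the inhibitor Nfkbib fell by 0.38 and 0.60. In all, 6 of 28 genes of inflammation and NF-κB feedback rose and 2 fell (28.6% called, beside 10.2% of all genes). Their median of -0.01 was -0.11 with median-of-ratios scaling and 0.10 with equal FPKM sums. Acod1, which makes the antimicrobial metabolite itaconate, stood at 14.4, 17.6 and 16.4 FPKM after HOCl, against 7.14, 8.11 and 8.96 FPKM in cell media (0.92, adjusted p = 0.00981). Trib1, a pseudokinase that controls C/EBP levels, rose by 1.04 (adjusted p = 0.0161). Lcn2, the iron-siderophore binding protein lipocalin 2, went the other way, with 10.1, 7.39 and 8.34 FPKM after HOCl, against 35.6, 27.9 and 27.5 FPKM in cell media (-1.70, adjusted p = 0.0135). Cebpb, a macrophage C/EBP factor that the ATF4 list also holds, fell by 0.80, with 18.5, 19.2 and 16.1 FPKM after HOCl, against 39.3, 35.9 and 23.2 FPKM in cell media. The chemokine receptor Cxcr4 stood at 7.23, 8.33 and 8.06 FPKM after HOCl, against 15.2, 16.5 and 13.6 FPKM in cell media (-0.86, SE 0.09, adjusted p = 0.00516), and the call held against replicate 3 alone (-0.72, adjusted p = 0.0384). Against replicate 3 alone Ccl2, Ccl9, Tnip3 and Acod1 were also called (adjusted p = 0.0493, 0.0485, 0.0442 and 0.0485). There Cxcl10, Il1rn, Trib1, Lcn2, Relb, Nfkbib and Cebpb were not called (adjusted p = 0.075, 0.0647, 0.0504, 0.0504, 0.131, 0.131 and 0.0677). The HBSS minus cell media differences of Acod1 and Lcn2 were 0.82 and -1.19, beside 0.10 and -0.52 for HOCl minus HBSS. Chemokines other than Ccl7, the 5 classical genes, Relb, Nfkbib and Cebpb are given after their values were seen.

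Interferon-stimulated genes were higher after HOCl than in cell media. Of 34 kept, 13 rose and 0 fell (38.2% called, beside 10.2% of all genes). Of the 34, 17 lay above all cell media libraries, beside 16.3% of all genes. The median log2 difference was 0.44, with 0.54 against replicates 1 and 2 and 0.24 against replicate 3. Levels were low for most of them. Cmpk2, a mitochondrial nucleotide kinase, stood at 2.55, 2.67 and 2.45 FPKM after HOCl, against 0.98, 1.18 and 1.37 FPKM in cell media (0.71, adjusted p = 0.0171). Ifi44l stood at 2.16, 2.21 and 2.44 FPKM after HOCl, against 0.601, 0.945 and 1.18 FPKM in cell media (0.79, adjusted p = 0.0191). Rtp4, a receptor transport protein, stood at 1.45, 1.53 and 1.73 FPKM after HOCl, against 0.853, 0.716 and 0.716 FPKM in cell media (0.54, adjusted p = 0.0227). For these 3 genes the groups did not overlap. None of them was called against replicate 3 alone (0.58, 0.59 and 0.58), and almost no other member of the list was. The log2 differences of HBSS from cell media were 0.69 for Cmpk2, 1.02 for Ifi44l and 0.68 for Rtp4, and those of HOCl minus HBSS were 0.02, -0.23 and -0.14. Over the list the medians were 0.53 for HBSS minus cell media and -0.15 for HOCl minus HBSS, comparisons that share the HBSS libraries. The OAS sensors of double-stranded RNA were split, with Oasl2 rising by 0.47 and Oas1a, Oas1b, Oas1g and Oas3 between -0.21 and -0.03 without a call. The Oas genes include closely similar copies, above all those named Oas1, and the values of such copies are less certain. The core of the interferon-stimulated response element, GAAA repeated after 2 free bases, was found on either strand in 13 of 25 list promoters (52%), beside 3.94% of promoters of genes kept. The Oas genes are named after their values were seen.

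Genes of the macrophage identity list were mostly higher, 15 of 19 kept, with 4 rises and 0 falls (21.1% called, beside 10.2% of all genes). Mertk, a receptor for the uptake of apoptotic cells, stood at 6.60, 7.23 and 6.99 FPKM after HOCl, against 2.40, 2.92 and 4.89 FPKM in cell media (0.89, adjusted p = 0.0251). Csf1r, the receptor of the growth factor that keeps macrophages alive, stood at 83.6, 87.3 and 92.4 FPKM after HOCl, against 41.4, 54.3 and 66.3 FPKM in cell media (0.72, adjusted p = 0.0282). In both genes replicate 3 was the cell media library nearest to HOCl, and neither was called against it alone (adjusted p = 0.0819 and 0.0696). Fcgr1, a high-affinity antibody receptor, rose by 0.36 (adjusted p = 0.0339), and the scavenger receptor Msr1 was the last of the 4. Fcgr1 and Msr1 were not called against replicate 3 alone either (adjusted p = 0.0596 and 0.138). Over the list the medians were 0.20 for HBSS minus cell media and 0.06 for HOCl minus HBSS. Tyrobp and Fcer1g, short signalling adaptors, were at -1.19 and -0.63 against replicates 1 and 2 but at 0.21 and 0.06 against replicate 3. Fewer cells of a kind and less RNA per cell cannot be told apart in these bulk libraries, here or in any group of genes.

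DNA replication genes were higher after HOCl than in cell media. Of 44 kept, 17 rose and 0 fell (38.6% called, beside 10.2% of all genes). Of the 44, 25 lay above all cell media libraries, beside 16.3% of all genes. The median log2 difference was 0.40, with 0.45 against replicates 1 and 2 and 0.33 against replicate 3. Orc1, the largest subunit of the origin recognition complex, stood at 7.82, 8.65 and 7.33 FPKM after HOCl, against 3.12, 3.95 and 5.37 FPKM in cell media (0.82, adjusted p = 0.0205). Mcm10, which activates the replicative helicase, stood at 13.9, 13.8 and 13.4 FPKM after HOCl, against 5.43, 6.77 and 9.50 FPKM in cell media (0.86, adjusted p = 0.0205). The helicase subunit Mcm4 stood at 43.3, 46.5 and 47.9 FPKM after HOCl, against 23.7, 28.2 and 32.2 FPKM in cell media (0.70, adjusted p = 0.0229). The groups did not overlap in any of the 3, and none was called against replicate 3 alone (0.48, 0.48 and 0.50, adjusted p = 0.0613, 0.0612 and 0.0696). The list medians were 0.24 for HBSS minus cell media and 0.12 for HOCl minus HBSS. Pcna, the sliding clamp of the polymerases, is named because it was seen to be called against replicate 3 alone, as few members of the list were. Pcna stood at 251, 279 and 266 FPKM after HOCl, against 178, 221 and 178 FPKM in cell media (0.47, adjusted p = 0.0332, and 0.57 against replicate 3, adjusted p = 0.0459). Mitosis genes were less uniform between the controls. Of 35 kept, 7 rose and 0 fell (20.0% called, beside 10.2% of all genes). The median was 0.50 against replicates 1 and 2 and 0.10 against replicate 3.

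Of 34 kept ribosome biogenesis genes, whose products build ribosomes in the nucleolus, 11 rose and 0 fell (32.4% called, beside 10.2% of all genes). Their median was 0.30, and 0.27 against replicate 3. Ncl, the nucleolar protein nucleolin, stood at 157, 183 and 188 FPKM after HOCl, against 88.9, 91.0 and 130 FPKM in cell media (0.78, adjusted p = 0.0228). Rrn3, which recruits RNA polymerase I, rose by 0.32 (adjusted p = 0.0294) and Wdr12 by 0.63 (adjusted p = 0.03). None of these 3 was called against replicate 3 alone (adjusted p = 0.0729, 0.0517 and 0.0559). The list medians were 0.24 for HBSS minus cell media and 0.06 for HOCl minus HBSS. The ribosomal proteins themselves depended on the control. Of 77 kept, 0 were called by limma in the main comparison, with 48 at an unadjusted p under 0.05, beside 3767 of all 11398 genes. Of them, 64 were lower with a call against replicates 1 and 2 (median -0.82), beside 20.7% of all genes. Against replicate 3, 68 of 77 were higher (median 0.10), beside 5591 of all 11398 genes. Ribosomal protein genes have many processed copies in the genome, so their values are less certain.

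The same turn was seen in the nuclear genes of the respiratory chain. Of 36 complex I genes, 33 were called lower against replicates 1 and 2 (median -0.71), beside 20.7% of all genes. Against replicate 3, 35 of them were higher (median 0.22), beside 5591 of all 11398 genes. Complexes II to V behaved alike, with 30 of 38 called lower against replicates 1 and 2 (median -0.62) and 37 higher against replicate 3 (median 0.24). Ndufb4, a complex I subunit, stood at 20.9, 21.8 and 20.2 FPKM after HOCl, against 54.2, 52.8 and 20.5 FPKM in cell media. Uqcrq, of complex III, stood at 80.8, 78.2 and 84.7 FPKM after HOCl, against 216, 201 and 84.2 FPKM in cell media. Replicate 3 lay within the HOCl range for both genes, far below replicates 1 and 2. No complex I gene lay above or below all cell media libraries, and of complexes II to V 2 genes lay above and 0 below. Of all genes, 16.3% lay above and 8.39% below. Sdha, the flavoprotein of complex II, was the single member of these lists that rose in the main comparison (66 ± 1.73 FPKM after HOCl and 49.4 ± 10.4 FPKM in cell media, SD, n = 3 each, log2 difference 0.43, adjusted p = 0.0451). Mitochondrially encoded messages had a median of 0.11. Among them mt-Co3, of complex IV, rose, with 114, 111 and 174 FPKM after HOCl, against 45.0, 70.2 and 55.2 FPKM in cell media (1.20, adjusted p = 0.0413), and its HBSS mean of 62.6 ± 5.52 FPKM was near that of cell media. Neither Sdha nor mt-Co3 was called against replicate 3 alone (0.11 and 1.22, adjusted p = 0.196 and 0.0957).

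Splicing factors differed in the same dependent way, by control and by gene. Of 34 kept, 7 rose and 2 fell in the main comparison (26.5% called, beside 10.2% of all genes). Against replicates 1 and 2, 28 were called higher (median 0.56), beside 38.5% of all genes. Against replicate 3, 24 were lower (median -0.14), beside 5807 of all 11398 genes. The SR proteins Srsf3 and Srsf7 rose against both, by 0.55 and 0.62 against replicates 1 and 2 and by 0.41 and 0.45 against replicate 3 (adjusted p = 0.0495 and 0.0442). Clk1, a kinase of SR proteins, fell. It stood at 9.23, 8.27 and 7.95 FPKM after HOCl, against 11.4, 12.5 and 14.9 FPKM in cell media (-0.55, adjusted p = 0.0178, and -0.75 against replicate 3, adjusted p = 0.0237). Here replicate 3 was the cell media library farthest from HOCl. In HBSS libraries Clk1 averaged 12.2 ± 0.608 FPKM. The HBSS minus cell media differences of Clk1, Srsf3 and Srsf7 were -0.07, 0.36 and 0.45. Those of HOCl minus HBSS were -0.48, 0.15 and 0.11. Over the list the medians were 0.45 for HBSS minus cell media and -0.16 for HOCl minus HBSS.

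The genes that set replicates 1 and 2 apart from both HOCl and replicate 3 were largely short. The 6 largest rises and 6 largest falls against replicates 1 and 2 with replicate 3 inside the HOCl range were taken as examples. The risers were the small RNA genes Gm23969, mt-Te, Gm26109, Snord43 and Gm25835 and the transcript Gm17024. Among the fallers were Bc1, Gm5963, Dpm3, Gm10123 and Gm10154. The 11 genes named had exon lengths between 69 and 919 bases. Dpm3, a subunit of the enzyme that makes dolichol-phosphate mannose, stood at 16.4, 18.1 and 18.8 FPKM after HOCl, against 64.0, 51.1 and 18.5 FPKM in cell media. Bc1, a short RNA polymerase III transcript, stood at 24.4, 43.3 and 29.2 FPKM after HOCl, against 157, 80.4 and 32.5 FPKM in cell media. Its cell media libraries differed among themselves by more than the group means did. Messenger RNA libraries hold such short RNAs only in part, and several of these genes are copies that may share reads with other genes.

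Across all genes the difference followed exon length, and in opposite senses for replicates 1 and 2 and for replicate 3. Genes were divided by the exon length of the gene model into 5 classes of equal size. The median log2 difference against replicates 1 and 2 was -0.11, -0.07, 0.11, 0.21 and 0.33 from the shortest class to the longest. Against replicate 3 it was 0.16, 0.08, 0.01, -0.07 and -0.17. In the main comparison it was -0.03, -0.04, 0.07, 0.11 and 0.16, and the classes held 86, 172, 229, 174 and 133 rises and 56, 125, 99, 59 and 26 falls. The part of exon length in the calls of single genes was examined by removing each library's trend on length, which gave 1150 rises and 1083 falls. The ATF4 target median was -0.61 and the endoplasmic reticulum chaperone median 0.40 after that removal.

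**Figure D4:**
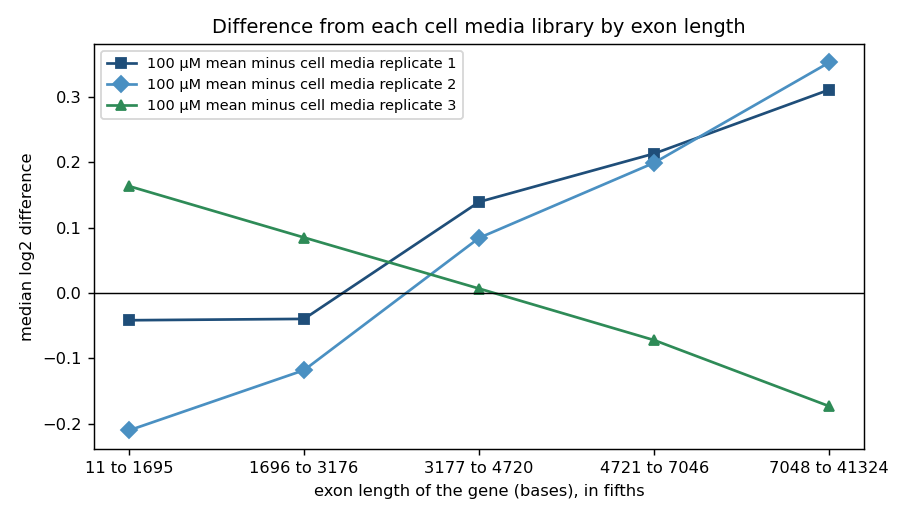
Median log2 difference of the HOCl 100 µM mean from cell media replicate 1 (square), 2 (diamond) and 3 (triangle) on the y axis, by classes of exon length in bases on the x axis. The medians against replicates 1 and 2 climb from -0.04 and -0.21 in the shortest class to 0.31 and 0.35 in the longest, and those against replicate 3 descend from 0.16 to -0.17.

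Mitophagy genes, the subject of the study's title, were called about as often as all genes. Of 28 kept, 1 rose and 2 fell (10.7% called, beside 10.2% of all genes), 14 were higher and 14 lower, and the median was -0.02. The sign of that median was positive (0.09) with equal FPKM sums. Pink1, the kinase that marks damaged mitochondria for Parkin, stood at 5.81, 4.96 and 5.51 FPKM after HOCl, against 8.47, 7.55 and 6.02 FPKM in cell media. Its groups did not overlap, yet the log2 difference of -0.37 was not called (95% interval -0.66 to -0.08, adjusted p = 0.086). Its difference was -0.53 for HBSS minus cell media and 0.16 for HOCl minus HBSS. Bnip3, a receptor on the outer mitochondrial membrane, stood at 17.4, 14.6 and 15.7 FPKM after HOCl, against 12.3, 11.7 and 11.7 FPKM in cell media (0.39, adjusted p = 0.0493). The related receptors Bnip3l and Fundc1 had differences of 0.14 (95% interval -0.09 to 0.37) and 0.10 (-0.13 to 0.34) and were not called. Sqstm1, the cargo adaptor p62, stood at 174, 154 and 171 FPKM after HOCl, against 290, 259 and 218 FPKM in cell media (-0.61, adjusted p = 0.0305). Map1lc3a, which encodes an LC3 protein of the autophagosome, fell by 1.05, with 7.56, 6.25 and 5.92 FPKM after HOCl, against 22.9, 15.8 and 8.54 FPKM in cell media. Its difference against replicate 3 alone was -0.34 and not called (adjusted p = 0.258), and it was -1.17 for HBSS minus cell media and 0.11 for HOCl minus HBSS. Bnip3 and Sqstm1 were likewise not called against replicate 3 alone (0.41 and -0.39, adjusted p = 0.095 and 0.104). Of 30 autophagosome formation genes, 0 were called by limma in the main comparison. An unadjusted p under 0.05 was reached by 7 of them, beside 3767 of all 11398 genes.

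Genes of the oxidant defence were called about as often as all genes (10.2%). NRF2 is the factor that senses electrophiles through KEAP1, and 3 of its 26 kept targets rose and 0 fell (11.5% called, median 0.19). Hmox1, the heme oxygenase, stood at 99.0, 129 and 111 FPKM after HOCl, against 72.9, 87.8 and 61.4 FPKM in cell media. The groups did not overlap (log2 difference 0.61, SE 0.17, adjusted p = 0.0449). G6pdx and Idh1, which supply NADPH, rose by 0.33 and 0.48 (adjusted p = 0.0294 and 0.0305). Gclc and Gclm of glutathione synthesis, Txnrd1 of the thioredoxin system and Osgin1, chosen after their values were seen, differed by 0.51, 0.23, 0.33 and 0.19 without a call. Of 23 antioxidant enzymes, the glutaredoxins Glrx3 and Glrx rose, by 0.45 and 0.62 (adjusted p = 0.031 and 0.0387), and 0 fell (8.70% called). Hmox1, G6pdx, Idh1, Glrx3 and Glrx were not called against replicate 3 alone (adjusted p = 0.0504, 0.05, 0.0586, 0.0559 and 0.0514). Msrb1, which reduces oxidised methionine, stood at 95, 97.7 and 100.2 FPKM after HOCl, against 189, 170.2 and 100.4 FPKM in cell media, and was not called.

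Proteasome and cholesterol genes rose in small numbers, read beside the 10.2% of all genes called. Of 32 proteasome genes, 6 rose and 0 fell (18.8% called), among them the lid and base subunits Psmd12, Psmd1 and Psmd11 by 0.46, 0.59 and 0.27, none of these 3 with a call against replicate 3 alone (adjusted p = 0.0561, 0.0691 and 0.0646). The list's median of 0.10 was -0.01 with median-of-ratios scaling. Of 23 cholesterol synthesis genes, 6 rose and 0 fell (26.1% called, median 0.19). Nsdhl, which removes methyl groups of sterols, stood at 24.3, 22.2 and 21.5 FPKM after HOCl, against 15.5, 19.1 and 16.2 FPKM in cell media (0.40, adjusted p = 0.0304). Cyp51 and Hsd17b7 of the same pathway rose by 0.66 and 0.56. Nsdhl was the member also called higher against replicate 3 alone among those that rose (0.46, adjusted p = 0.0442).

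Some of the widest gaps between the groups lay in genes whose mean HBSS level was nearer to cell media than to HOCl. Sumo2, a small ubiquitin-like modifier, stood at 61.8, 70.9 and 72.6 FPKM after HOCl, against 30.5, 37.3 and 32.9 FPKM in cell media, and at 20.7, 37.6 and 57.4 FPKM in HBSS libraries. The HBSS libraries were far apart from each other. Gm8355 stood at 7.72, 11.9 and 12.7 FPKM after HOCl, against 2.47, 4.57 and 3.55 FPKM in cell media, and averaged 4.82 ± 1.91 FPKM in HBSS. Gm10241 stood at 23.0, 20.7 and 19.2 FPKM after HOCl, against 100, 89.4 and 70.3 FPKM in cell media, and at 92.6, 76.9 and 34.6 FPKM in HBSS. Sumo2 has processed copies, and gene models with Gm names are often copies of other genes, so reads may be shared. Gadd45g belongs here too, with an HBSS mean of 2.46 ± 0.33 FPKM and log2 differences of 0.81 for HOCl minus HBSS and 0.26 for HBSS minus cell media. The other genes with the widest gaps were Snora41 and mt-Tl1, a small nucleolar and a mitochondrial transfer RNA, which rose by 1.15 and 1.76, and Angptl6, a secreted angiopoietin-like protein, which fell by 1.48. For Snora41, mt-Tl1 and Angptl6 the HBSS means, 13.4, 65.3 and 6.07 FPKM, were nearer to HOCl than to cell media. The HOCl means were 15.0, 68.2 and 3.64 FPKM and the cell media means 6.30, 24.2 and 11.9 FPKM. Of these genes, mt-Tl1 and Gadd45g were called against replicate 3 alone (adjusted p = 0.0319 and 0.0408), and Sumo2, Gm8355, Gm10241, Snora41 and Angptl6 were not (adjusted p = 0.116, 0.0832, 0.0515, 0.0515 and 0.0681). In the same model 0 of 11398 genes (0%) were called for HOCl minus HBSS, with 878 at an unadjusted p under 0.05, and 2 (0.0175%) for HBSS minus cell media.

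**Figure D5:**
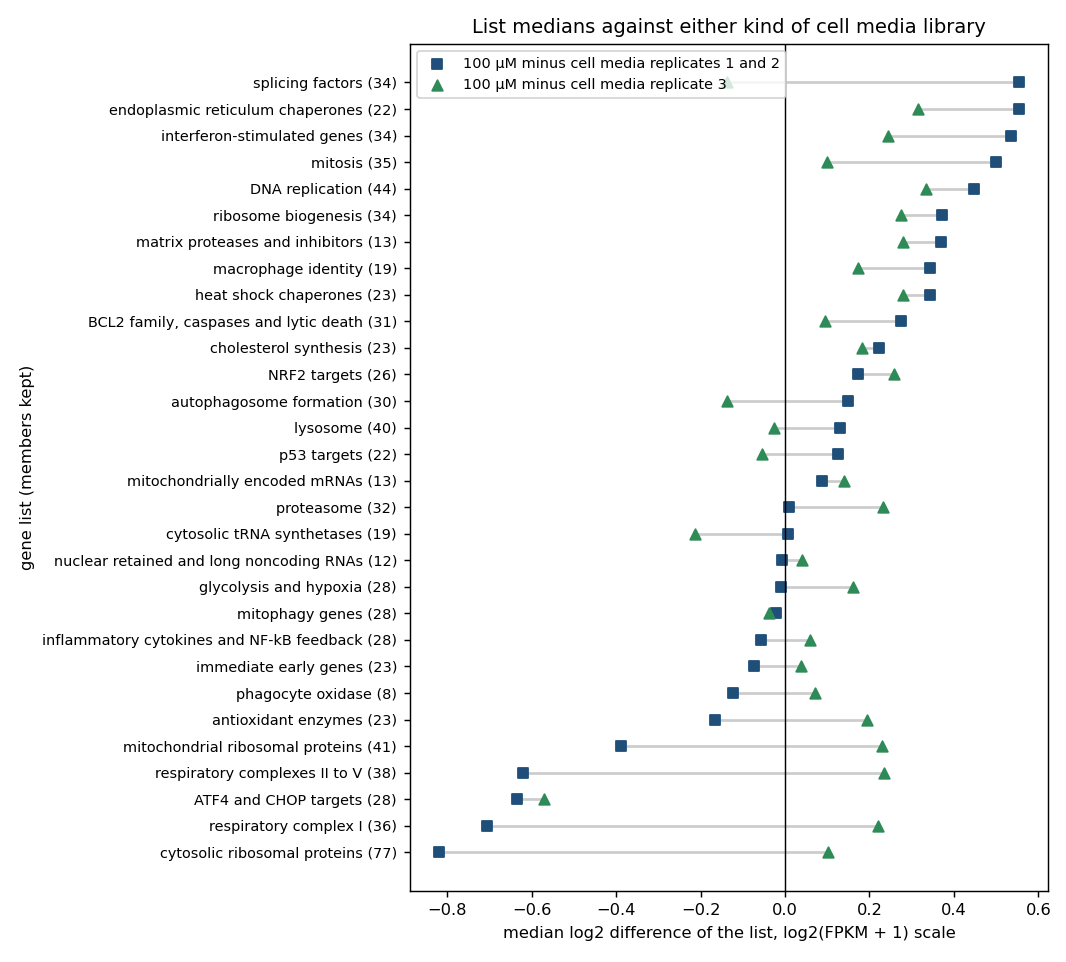
Median log2 difference of 30 gene lists against cell media replicates 1 and 2 (squares) and against replicate 3 (triangles), with the number of members kept in brackets. ATF4 and CHOP targets are at -0.63 and -0.57 and endoplasmic reticulum chaperones at 0.55 and 0.32, while cytosolic ribosomal proteins are at -0.82 and 0.10 and splicing factors at 0.56 and -0.14.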

How the data were processed

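The deposited table held FPKM values of 12 mRNA libraries of J774A.1 cells in 4 groups of 3. Per the submitters' processing notes, HISAT2, featureCounts and the GRCm39 build were used, with neither versions nor strand settings in the sources at hand. Names and exon lengths came from GENCODE M21, of another build. The authors' FPKM values were taken as log2(FPKM + 1) and fitted in 1 model of the 12 libraries and their 4 group means with limma (version 3.58.1, under R version 4.3.3) and a mean-variance trend. Tests were two-sided, with Benjamini-Hochberg adjustment over 11398 genes. A permutation of 3 against 3 cannot go below p = 0.1. Low values lay on whole-read steps (98.3% of values below 1 FPKM within 0.01), which gave the depth and an alternative test. Simulated data with known changes were used to test the limma step.

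The members, the 36 gene lists and the tests were chosen with earlier results of these data known. Named genes were the 8 widest gaps between groups in each direction (called, mean of at least 5 FPKM), the 6 largest rises and falls against cell media replicates 1 and 2 with replicate 3 inside the HOCl range, 3 members with the smallest p in 20 lists, and 8 fixed genes; some of these are not reported here. Alternatives were pseudocounts, filters, scalings, models, a replicate block and left-out libraries. Python 3.11.15, pandas 2.3.3 and matplotlib 3.10.9 made the tables and plots.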

Additional observations from a re-analysis of the deposited data

How the results depend on the processing

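The count of 1165 genes called (795 rises, 370 falls) rested on single libraries. Leaving out each library in turn gave between 7 and 6746 genes, with 2 to 4389 rises and 5 to 2357 falls. The count was 182, 7 and 23 without HOCl replicates 1, 2 and 3, and 53, 671 and 6746 without cell media replicates 1, 2 and 3. Without cell media replicates 1 and 2 it was 427 (182 and 245). Other counts were 240 with no filter on low values (137 and 103), 3 with the 6 libraries alone (0 and 3, with 1920 genes at an unadjusted p under 0.05), 5622 with library weights (3638 and 1984) and 54 with a minimum log2 difference of 1 (25 and 29). The falls were 582 with median-of-ratios scaling and 596 with quantile normalization. Chosen after the data were seen, equal FPKM sums gave 509 (395 and 114) and removal of the exon length trend 2233 with 1083 falls. The causes were not tested. The count stayed within 1.5 times with other pseudocounts, a mean of at least 5 FPKM, no mean-variance trend and limma-voom on recovered reads (1206).

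Deviations of same-numbered replicates from their group means correlated at r = -0.31, 0.17 and -0.44 for numbers 1, 2 and 3. Cell media replicate 3 weighs heavily in the deviations of its group. These values therefore cannot decide whether the numbers pair the samples, and the labels do not say. The fit with the replicate block called 1538 genes, 1054 rises and 484 falls.

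Of the named genes, 7 changed direction without cell media replicates 1 and 2, none of them called in the main comparison. Their log2 differences then were -0.71 for Gm26109, -0.060 for Gm17024, -0.083 for Snord43, 0.0062 for Ndufa13, 0.029 for Ndufb4, -0.029 for Bnip3l and -0.12 for Fundc1. With 1 control library of that kind, precision against replicate 3 rests on the spread of other groups, and 17683937 to 20328641 reads per library limit genes near 1 FPKM.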

Other observations

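Small nucleolar RNA genes were set apart from other classes by the control used. The 94 kept had a median log2 difference of 0.39 in the main comparison, with 2 rises and 1 fall, and of 0.62 against cell media replicates 1 and 2 and -0.28 against replicate 3. The 11 kept mitochondrial transfer RNA genes had medians of 0.77, 0.89 and 0.28 in the same order, with 3 rises. The 1027 pseudogenes kept had a median of 0.07, with 48 rises and 8 falls. Of all genes kept, 6.97% rose and 3.25% fell (10.2% called). Small nucleolar RNA genes and pseudogenes were thus called less often than all genes, and mitochondrial transfer RNA genes more often.

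The remaining gene lists are read beside the 10.2% of all genes called. Cytosolic tRNA synthetases, which charge tRNAs and include ATF4 targets, had 1 rise (Hars, by 0.44) and 2 falls (Sars and Wars, by 0.55 and 0.55) among 19 kept (15.8% called). Of 23 immediate early genes Dusp6 rose by 0.64, and Btg2 and Zfp36 fell by 0.49 and 0.42 (13.0% called). Of 40 lysosome genes 2 rose, among them Ctsk by 0.44, and Hexa fell by 0.36 (7.50% called). Of 8 phagocyte oxidase genes 1 rose and 0 fell (12.5% called). Of 12 nuclear retained and long noncoding RNAs 3 rose, the small nucleolar RNA hosts Snhg1 and Snhg5 by 0.52 and 0.58 and the microRNA host Mir17hg by 0.69, and Zfas1 fell by 0.50 (33.3% called). Of 41 mitochondrial ribosomal protein genes 1 fell (Mrpl23, by 0.69, 2.44% called), and the list median was -0.39 against replicates 1 and 2 and 0.23 against replicate 3.

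Of 28 genes of glycolysis and hypoxia 3 rose, among them Pdk1, which holds pyruvate back from the mitochondrion, by 0.48. Several glycolysis enzymes were called against replicate 3 alone and not in the main comparison. Ldha, which turns pyruvate into lactate, stood at 437, 464 and 465 FPKM after HOCl, against 358, 591 and 331 FPKM in cell media (log2 difference 0.46 against replicate 3, adjusted p = 0.0442). Tpi1, Pgam1, Pkm and Pfkl had differences of 0.47, 0.35, 0.37 and 0.42 against replicate 3. Against replicates 1 and 2 their differences were -0.41, -0.27, -0.0028 and 0.084. Of the long noncoding RNAs, Neat1, which builds nuclear paraspeckles, stood at 6.65, 4.81 and 3.67 FPKM after HOCl, against 7.16, 6.28 and 12 FPKM in cell media, and was called against replicate 3 alone (-1.13, adjusted p = 0.0459). The choice of these genes, and of those named for the remaining lists, followed their values.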
